A study of Homo sapiens with 6 samples.

Results

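Of the 1514 DNA break regions in the deposited lists, 252 lay at chromosome ends, around centromeres or off the assembled chromosomes. A region was counted at a chromosome end when its summit, the position of highest read coverage, was less than 100 kb from the first or last base of a chromosome in the human build hg19. It was counted as pericentromeric when the summit was within 2 Mb of the cytogenetic bands that mark the centromere, called acen bands. Regions outside chromosomes 1 to 22, X and Y made up the contig class, which takes in the mitochondrial genome. Position alone decided the class, and the remaining 1262 regions, on the chromosome arms, served as the comparison.

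The cells were MDA-MB-231, an established human triple-negative breast cancer line. The control arm received DMSO, the solvent, for 9 h, and the treated arm received VE-822 at 0.5 µM together with aphidicolin at 0.2 µM, also for 9 h (ATRi+APH). VE-822 inhibits ATR, the kinase that protects stalled replication forks, and aphidicolin slows replicative DNA polymerases. Break ends were labelled in permeabilised cells with biotin-16-ddUTP, captured with streptavidin and sequenced (BrITL), from 2 pull-down libraries and 1 input library per condition, 6 samples in all. The labels do not say whether the pull-down libraries of a condition came from separate cultures. Each condition was deposited as 1 list called on its pooled libraries, so every value below has n = 1 per condition, no replicate spread and no test between conditions.

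Human chromosomes end in long arrays of the TTAGGG repeat, protected by the shelterin proteins, and the subtelomeric DNA just inside them is a patchwork of segments copied between many chromosome ends. Centromeres sit in alpha satellite arrays, flanked by other satellites and segmental duplications. Unplaced contigs hold much of the same repeat-rich material, and gl000220 carries a copy of the ribosomal RNA gene unit, whose other copies are on the short arms of the acrocentric chromosomes. Reference assemblies carry only part of these repeats. Reads from many genomic copies can therefore align to a single copy, and most hg19 chromosomes start and stop with placeholder bases in place of the telomere.

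The lists held 381 regions for DMSO and 1133 for ATRi+APH. Reads at each summit were worked out from the deposited fold enrichment and p-value and came out whole for 100% of regions, with 15 to 156 reads in the DMSO list and 27 to 140 in the treated list. The genome-wide mean coverage was 1.64 reads in the DMSO pull-down and 5.13 in the treated pull-down, a ratio of 3.13. No summit exceeded 156 reads, which is 2 times the shortest region width of 78 bp, the number of distinct read positions that both strands offer over that width. If repeated reads at a position had been dropped before calling, a count above 156 could not be seen, which was not tested. Fold enrichment is the authors' ratio of pull-down coverage to local background, and the lists were called separately, so folds were ranked within a list and set side by side without a quotient between conditions.

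As deposited, these classes made up a large part of all DMSO regions and a small part of the treated regions. Chromosome ends held 47 DMSO regions (12.3% of the list, 95% exact interval 9.21 to 16.1) and 41 treated regions (3.62%, 2.61 to 4.88). The pericentromeric class held 67 DMSO regions (17.6%, 13.9 to 21.8) and 35 treated regions (3.09%, 2.16 to 4.27). The contig class held 52 DMSO regions (13.6%, 10.4 to 17.5) and 10 treated regions (0.883%, 0.424 to 1.62). The absolute numbers were similar between lists at chromosome ends alone among the 3 classes, while arm regions numbered 215 in the DMSO list and 1047 in the treated list. The lists end at unlike cutoffs, with a lowest −log10 p of 10.55 in the DMSO list and 6.41 in the treated list. At 10.55 or above, 123 treated regions remained: 32 at ends, 3 pericentromeric, 4 on contigs and 84 on the arms. With that cutoff, ends made up a larger share of the treated list than of the DMSO list. The pericentromeric and contig shares stayed smaller, and arm regions were fewer in the treated list. A p-value depends on depth, which differed between the lists, and each list was called on its own input. The same cutoff therefore does not put the lists on one scale. Per megabase of the hg19 window, all deposited regions counted, chromosome ends held 9.79 DMSO and 8.54 treated regions. The pericentromeric windows held 0.334 and 0.174, and the arms 0.0744 and 0.362. Placeholder bases, where no region can be placed, were counted in these windows, so the densities of the classes are not on one footing.

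The classes also differed in how often the lists met. Of the DMSO regions at chromosome ends, 30 of 47 (63.8%, interval 48.5 to 77.3) overlapped a treated region by at least 1 bp, against 13.4% of the whole DMSO list. Of the treated regions at chromosome ends, 37 of 41 (90.2%, interval 76.9 to 97.3) overlapped a DMSO region, against 5.21% of the whole treated list. In the pericentromeric class 1 of 67 DMSO regions and 1 of 35 treated regions were shared, and in the contig class 1 of 52 and 1 of 10. Arm regions were shared in 19 of 215 cases for DMSO and 20 of 1047 for ATRi+APH. These included regions at 3q, 4q, 11p and 20q, 106.8 to 189.9 kb from a chromosome end. Neighbouring regions are not independent, so these intervals cover counting error only.

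Among DMSO regions, shape separated the classes. End regions were tall over a flat background: the median fold was 17.3, the median width 389 bp, and the median background equal to the genome-wide level (1.00 times). Pericentromeric and contig regions were low and narrow over a high background, with median folds of 2.96 and 3.24, median widths of 98 and 94 bp, and median backgrounds of 19.6 and 14.9 times the genome level. A background above 10 times the genome level was found under 51 of 67 pericentromeric and 34 of 52 contig regions, under 0 of 47 end regions and under 21 of 215 arm regions, where the whole DMSO list had 27.8%. Regions narrower than 100 bp numbered 35, 32 and 2 in the pericentromeric, contig and end classes (24.4% of the DMSO list). Summits at 90% of the 156-read maximum or more numbered 9 pericentromeric, 9 contig, 2 end and 4 arm regions.

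**Figure D1:**
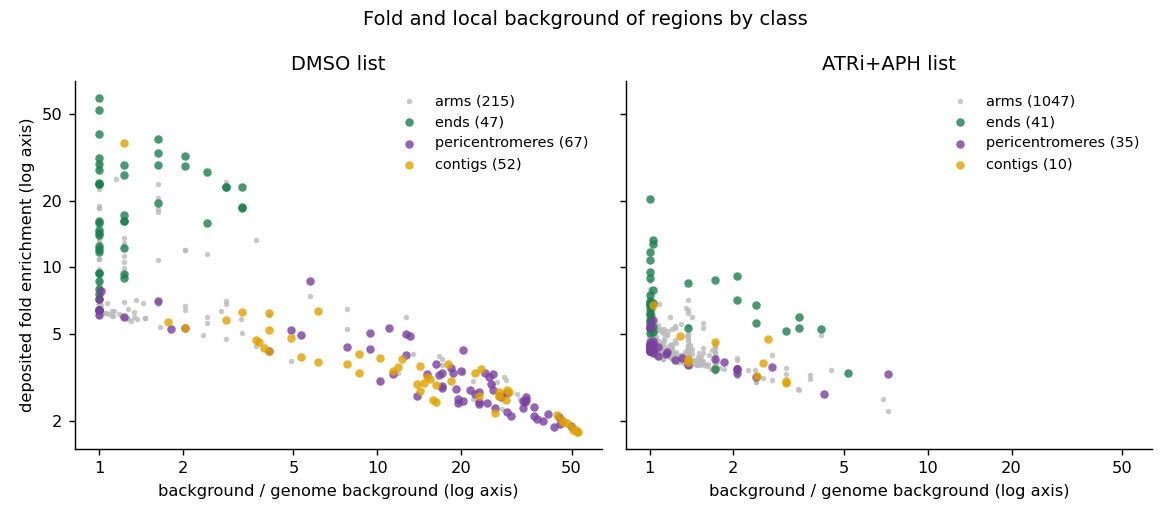
Deposited fold enrichment (y axis, log scale) against the local background under the summit in multiples of the genome background (x axis, log scale), 1 point per region, DMSO list on the left and ATRi+APH list on the right, coloured by class. DMSO end regions sit at the upper left, DMSO pericentromeric and contig regions run along the lower right to 52.7 times the genome background, and no treated region passes 7.22 times.

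The treated list did not hold such regions in any class. Median backgrounds were 1.00, 1.03 and 2.07 times the genome level for end, pericentromeric and contig regions, and no treated region exceeded 10 times (0% of the treated list). The highest treated background in these classes was 7.22 times, at 21p. Treated median folds were 6.20 at chromosome ends, 4.17 in the pericentromeric class and 3.77 on contigs, beside 4.22 on the arms. Narrow regions under 100 bp numbered 9, 13 and 1 (16.2% of the treated list). A −log10 q of at least 10 was reached by 22 of 41 end, 1 of 35 pericentromeric and 2 of 10 contig regions (3.27% of the treated list). Among DMSO regions 42 of 47, 42 of 67 and 30 of 52 reached it (52% of that list).

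The read maximum bears on this difference between lists. Had a treated summit held 156 reads, it would have reached the lowest −log10 p of the treated list only up to a background of 17.2 times the genome level. Of the DMSO regions, 38 of 67 pericentromeric and 21 of 52 contig regions had a background above that limit, against 0 of 47 at chromosome ends. Among the DMSO regions below the limit, 1 of 29 pericentromeric and 1 of 31 contig regions were shared, and 30 of 47 at chromosome ends. For DMSO regions above the limit, a lack of breaks in treated cells and a lack of room under the read maximum cannot be told apart.

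At chromosome ends the lists picked largely the same places. Of the 48 ends of the 24 chromosomes, 21 carried a DMSO region and 19 a treated region. Both lists marked 18 of them: 1p, 1q, 2p, 2q, 4p, 5p, 7p, 7q, 8q, 9p, 10q, 12p, 15q, 17q, 18p, 18q, 19q and 21q. The DMSO list alone marked 11q, 12q and 16p, the treated list alone marked 8p, and 26 ends carried no region in either list. These 26 included all 4 ends of chromosomes X and Y and every short-arm end of the acrocentric chromosomes 13, 14, 15, 21 and 22. The outer short arms of these acrocentric chromosomes are placeholder bases in hg19, so no region could be placed there. Whether this cell line carries a Y chromosome was not looked up.

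Many end regions lay at a similar distance from the hg19 chromosome end. Distances were counted with placeholder bases included, and the length of these bases at each end was not looked up. Outermost DMSO regions started at position 9986 at 18p, 9998 at 2p, 10004 at 4p, 10006 at 7p and 60002 at 16p. How far regions lay from the first sequenced base was therefore not measured. Neither the common distance nor the departures from it given below were separated from the length of the placeholder bases, whose part was not tested. Distances ran from 0.206 to 95.5 kb in the DMSO list (median 11.6) and from 0.198 to 97.4 kb in the treated list (median 11.2). Between 10 and 17 kb lay 32 of 47 DMSO and 31 of 41 treated regions, and between 10 and 10.5 kb lay 12 and 14. The region nearest to the end lay between 10 and 11 kb at 14 of 21 DMSO ends and 13 of 19 treated ends. Among the ends marked by both lists, 5 departed from this, each at the same place in both: 17q at 0.206 and 0.198 kb, 2q at 44.9 to 46.6 kb, 8q at 62.7 and 63.2 kb, 18q at 61.0 and 60.8 kb, and 12p between 94.1 and 95.5 kb. Within the DMSO list the 12 regions at 10 to 10.5 kb had a median fold of 29.0 against 14.8 for the other end regions, and in the treated list the values were 6.08 and 6.49.

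**Figure D2:**
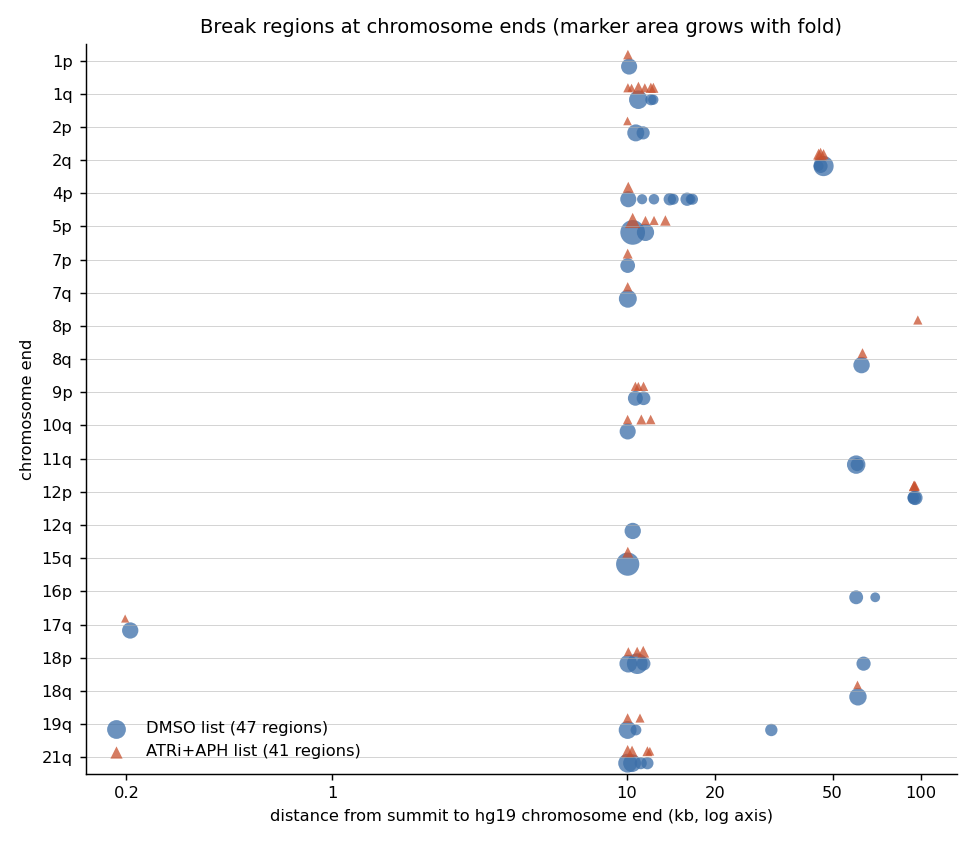
Distance of each summit from the hg19 chromosome end (x axis in kb, log scale) at the 22 ends that carried a region (y axis), with DMSO regions as circles and ATRi+APH regions as triangles and marker area growing with the deposited fold. Most markers of both lists stand between 10 and 17 kb, 2q, 8q, 12p, 17q and 18q depart from this in both lists, and 8p, 11q and 16p carry farther regions of 1 list alone.

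The number of regions per end differed between lists at some ends. At 4p the DMSO list had 8 regions from 10.1 to 16.7 kb and the treated list 1 region at 10.1 kb, and ZNF595, a zinc finger gene, is the outermost protein-coding gene there. At 1q, where PGBD2 (a gene derived from a piggyBac transposase) is outermost, the DMSO list had 3 regions and the treated list 6. The 5p end had 2 DMSO and 4 treated regions, and 10q, beside FRG2B, had 1 and 3. A single wide DMSO region overlapped 4 of the treated regions at 1q, 2 at 5p and 2 at 10q. Over all ends, 5 DMSO regions overlapped 2 or more treated regions, so region counts are not counts of separate break sites. Numbers were equal at 2q and 12p (3 each) and at 21q (4 each), the end of PRMT2, an arginine methyltransferase gene. Counting regions within 10 kb of each other as 1 left 23 DMSO and 19 treated groups of regions.

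The region of highest fold was at the same base in both lists. It lay at 5p, chr5:10385-10565 in the DMSO list (fold 59.1, 155 reads, 95% exact Poisson interval 132 to 181) and chr5:10398-10545 in the treated list (fold 20.6, 140 reads, 118 to 165), with both summits at position 10478. Both read counts stood near the 156-read maximum. Their intervals overlapped, but a Poisson interval takes no account of such a maximum, so the overlap cannot be read as equal counts. Among end regions, the DMSO region next in fold was at 15q, chr15:102520297-102521391 (fold 51.9, 136 reads), whose treated partner had 91 reads and a fold of 8.76.

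The DMSO end regions that followed in fold were chr18:10554-10972 at 18p (40.5, 106 reads), chr2:243152483-243153136 at 2q (38.3, 140 reads), chr21:48119695-48119895 at 21q (33.1, 121 reads) and chr1:249239044-249240567 at 1q (31.9, 138 reads). All 6 of these regions had a treated partner. In the treated list the 5p region was followed by chr2:243153717-243154161 (13.3, 92 reads), chr21:48119734-48119886 (12.7, 88 reads), chr1:249239605-249239820 (11.7, 79 reads), chr18:11147-13182 (10.8, 73 reads) and chr21:48119240-48119525 (9.54, 64 reads). The ends 1q, 2q, 5p, 18p and 21q thus each held 1 or more of the 6 end regions of highest fold in both lists. Over the whole DMSO list a contig region on gl000227 (fold 36.9) ranked between 2q and 21q. TUBB8B, a member of the beta-tubulin family, is the outermost protein-coding gene at 18p and FAM240C at 2q.

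Each of the 30 shared DMSO regions was paired with the overlapping treated region of nearest summit. The summits lay a median of 5.5 bp apart, 23 of 30 within 10 bp and 9 within 1 bp, with the largest gap, 671 bp, at 2p. Over all shared DMSO regions of the list, 68.6% had summits within 10 bp, and on the arms 12 of 19. Counted from the treated side, 23 of 37 shared end regions had a DMSO summit within 10 bp, where all shared treated regions gave 59.3%. The DMSO region was the wider in 29 of 30 pairs, with median widths of 450.5 and 229 bp.

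Reads at the shared summits did not follow the difference in depth. The treated count was below the DMSO count in 23 of 30 pairs and below 3.13 times the DMSO count, the ratio of genome-wide coverage, in 29 of 30. The quotient of treated over DMSO reads had a median of 0.753. It ran from 0.359 at 2p (28 over 78 reads, summits 671 bp apart) to 3.75 at 2q (60 over 16 reads). At this 2q pair the DMSO count was below that of any treated region, so a higher treated count was fixed by the calling. Poisson intervals of the paired counts stood apart in 15 of 30 pairs, in either direction. Among these, the treated count was the higher at 2q (48 DMSO and 92 treated reads, and 16 and 60) and 1q (24 and 50, and 19 and 47). The DMSO count was the higher in the rest of them. The read maximum limits this reading, since for 22 pairs a depth-scaled count would have exceeded 156 reads. The Poisson intervals take no account of this maximum.

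In the other 8 pairs, with fewer than 49.9 DMSO reads, the depth-scaled count stayed under the maximum. The quotient had a median of 1.73 there (0.902 to 3.75) and was below 3.13 in 7. These pairs were at 2q (48 and 92 reads, and 16 and 60), 18p (48 and 73), 9p (41 and 37), 21q (31 and 45), 1q (24 and 50, and 19 and 47) and 19q (22 and 34). In 4 of these pairs the DMSO count, 16 to 24 reads, was below 27, the lowest count of any treated region, so a higher treated count was fixed by the calling. In the other 4 the treated count was the higher in 3, and the quotient ran from 0.902 to 1.92, below 3.13 in all 4. The arm pairs had a median quotient of 0.842 over 19 pairs and values below 3.13 in all 10 pairs under the maximum. They are not wholly apart from the ends, since those at 3q, 4q, 11p and 20q lay 106.8 to 189.9 kb from one. In arm pairs with 16, 22 and 23 DMSO reads a higher treated count was likewise fixed by the calling. Fewer breaks per cell and different capture of these sites cannot be told apart from pooled counts.

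**Figure D3:**
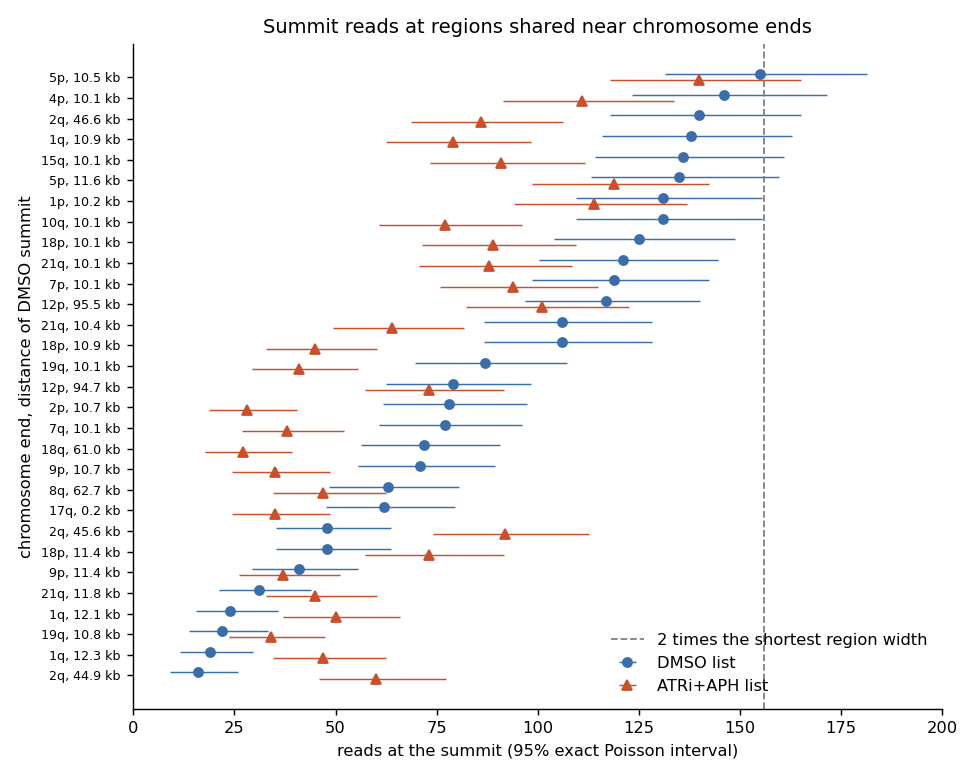
Reads at the summit (x axis) for the 30 pairs of overlapping regions at chromosome ends (y axis, ordered by DMSO reads), DMSO as circles and ATRi+APH as triangles, with bars for 95% exact Poisson intervals and a dashed line at 156 reads. The treated point lies left of the DMSO point in 23 pairs, and the 4 pairs with DMSO counts below 27, the lowest count in the treated list, could have it only on the right.

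In the other pairs of high treated fold, the DMSO summit mostly held more reads. At 1q (summits 9 bp apart) there were 138 DMSO and 79 treated reads, at 21q (1 bp apart) 121 and 88, and at the inner 21q pair (the same base) 106 and 64. At 4p, chr4:10004-10912 and chr4:10035-10371 shared a summit base with 146 and 111 reads, folds of 23.1 and 9.13, and backgrounds of 3.27 and 2.06 times. The DMSO count was the higher in each of these pairs, and the intervals were apart at 1q and at the inner 21q pair. At 12p, beside IQSEC3, the pair 94.7 kb from the end held 79 and 73 reads with overlapping intervals.

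Of the 17 DMSO end regions without a partner, 10 lay within 10 kb of a treated region, 7 of these at 4p, and 7 lay 19.9 to 4506 kb from the nearest one. Of the 4 treated end regions without a partner, 3 lay within 10 kb of a DMSO region. The 4 unshared treated regions were chr5:12973-14389, chr10:135522642-135522749, chr21:48117861-48117948 and chr8:97361-97441, and the last of these had 45 reads, a fold of 5.30 and no DMSO region at its end. The DMSO-only ends held chr11:134944545-134946534 (2 regions, highest fold 31.4, 82 reads, near B3GAT1), chr12:133839796-133841520 (10.5 kb from the end, fold 23.9, 62 reads, near ANHX) and 2 regions at 16p (60.2 and 69.8 kb, highest fold 16.3, 42 reads).

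The deposited regions are a numbered selection, which limits what an absence means. Region numbers ran in order of chromosome name and position up to at least 11612 in the DMSO list and 10154 in the treated list, so at most 3.28% and 11.2% of the numbered regions were deposited. Gaps in the numbers bound how many regions could lie in a stretch: in the treated numbering at most 2 fell between the deposited neighbours of the 11q stretch, at most 4 around 12q and at most 1 around 16p. A treated region below the deposited selection is thus possible at each of these ends. By contrast, the treated numbers left room for 0 regions on gl000193 and gl000208, where the DMSO list had 1 and 3.

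At the 100 kb limit, the regions just inside were the 12p pair at 95.5 kb (117 DMSO and 101 treated reads) and the treated 8p region at 97.4 kb. Nearest outside were a treated region at 16q (105.5 kb, fold 4.22) and a DMSO region at 18p (105.6 kb, fold 4.91), both unshared, and 2 more unshared DMSO regions followed at 18p (108.4 and 110.4 kb) over backgrounds of 11.8 and 19.6 times. Shared regions with a tall DMSO fold also lay outside, at 20q (106.8 kb, fold 29.5 in the DMSO list and 3.47 in the treated list) and 4q (110.2 kb, 138 and 111 reads). The 3q cluster, from 121.1 kb, also fell outside. At the 2 Mb limit, the regions just inside were a DMSO region at 14q (1.83 Mb, fold 6.44) and a treated region at 7p (1.99 Mb, fold 4.32), and those just outside were a DMSO region at 17q (2.12 Mb, fold 6.06) and a treated region at 8p (2.00 Mb, fold 4.17).

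Around centromeres the lists occupied different ground. In the DMSO list 38 of 67 regions (56.7%, interval 44.0 to 68.8) had their summit inside the acen bands, and 22 of the 29 outside lay within 0.5 Mb of them. In the treated list 6 of 35 (17.1%, interval 6.56 to 33.7) lay inside, 1 of the 29 outside was within 0.5 Mb and 23 were more than 0.9 Mb away. The median distance of the outside regions was 0.145 Mb in the DMSO list and 1.08 Mb in the treated list. The nearest region of the other list was a median of 1377 kb away for DMSO and 1228 kb for treated regions.

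Backgrounds in the DMSO list were highest in and beside the acen bands, with an exception on 21p. DMSO regions inside the acen bands had a median background of 16.9 times the genome level (1.00 to 41.2), and the 22 just outside them 26.9 times (1.63 to 49.8). The 7 DMSO regions farther out had a median of 1.23 times (1.00 to 34.3), with 17 reads at the median summit. The 3 of them on 21p had 5.72, 20.4 and 34.3 times and 89 to 147 reads. Treated regions had medians of 1.55 times inside the bands and 1.03 times at more than 0.5 Mb. Satellite content, local copy number and background were not separated from one another here, and their part in the DMSO regions was not tested.

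**Figure D4:**
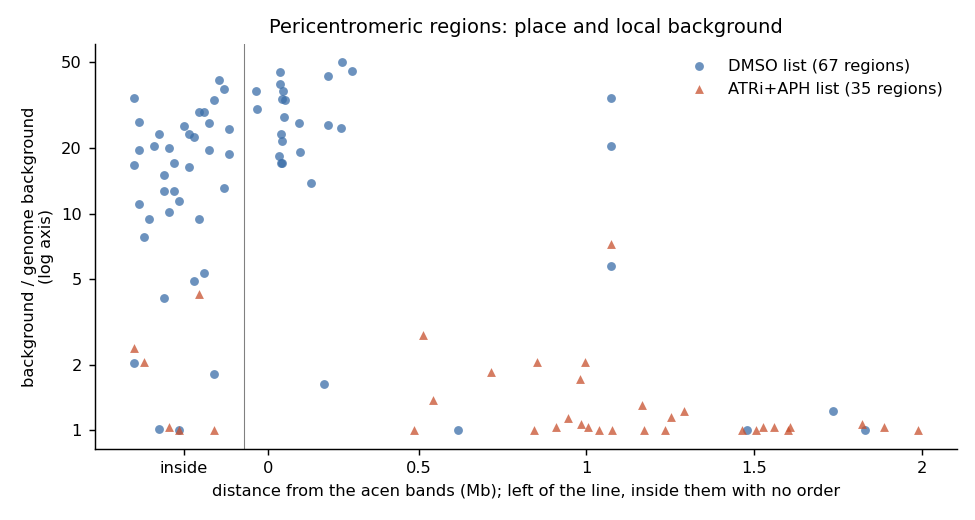
Local background in multiples of the genome background (y axis, log scale) against distance of the summit from the acen bands (x axis in Mb), with regions inside the bands drawn left of the line in no order, DMSO as circles and ATRi+APH as triangles. DMSO regions crowd inside the bands and within 0.5 Mb of them, mostly above 10 times, while treated regions lie mostly beyond 0.9 Mb and below 3 times.

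DMSO pericentromeric regions came in tight groups on a few chromosomes. Chromosome 10 had 13 between positions 42385067 and 42600215, just outside the acen bands on the long arm, with a median of 127 reads and a median background of 33.5 times. Chromosomes 2 and 8 had 9 each, all inside the acen bands, with medians of 107 and 91 reads. Chromosome 17 had 8 and chromosome 19 had 5, chromosomes 1 and X had 4 each, chromosome 21 had 3, chromosomes 5, 7 and 15 had 2 each, and chromosomes 4, 6, 11, 12, 14 and Y had 1 each. The Y region had 108 reads over a background of 18.4 times the genome level. Whether its reads came from a Y chromosome or from copies elsewhere was not tested. The 67 regions formed 27 groups when those within 10 kb were joined. In all, 17 chromosomes carried a DMSO region and 14 a treated region, 11 of them both, and chromosomes 3, 9, 13 and 16 carried neither.

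Treated pericentromeric regions were spread more thinly. Chromosome 14 had 7, from position 19585356 to 20988474 on the long arm, with 27 to 54 reads. OR11H12, an olfactory receptor gene, is the first protein-coding gene of that arm in GRCh38. Its place relative to these regions was not looked up. Chromosomes 2 and 22 had 4 each, chromosomes 1, 10 and 12 had 3 each, chromosomes 17, 20 and 21 had 2 each, and chromosomes 4, 6, 7, 8 and 18 had 1 each. The 35 treated regions formed 33 groups, so they were nearly all solitary. On chromosome 10 the lists did not meet: the treated regions lay 1.46 to 1.53 Mb from the acen bands, beyond the DMSO group at 0.0852 to 0.300 Mb, and at most 12 treated numbers could fall in the stretch of that group.

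The tallest pericentromeric regions were small beside those at chromosome ends. In the DMSO list they were chr21:9825788-9826021 (fold 8.67, 89 reads), chr2:92045784-92045900 (7.86, 20 reads), chr4:49273445-49273535 (7.19, 18 reads), chr19:24184060-24184170 (7.06, 25 reads), and chr14:20929727-20929998 and chr17:27278974-27279350 (6.44 and 16 reads each). All but the first had a background of at most 1.63 times the genome level, unlike most of their class. In the treated list they were chr20:30309472-30309899 (5.78, 39 reads), chr10:43763118-43763766 (5.48, 36 reads), chr22:16211270-16211347 (5.33, 35 reads), chr14:20988194-20988474 (4.64, 31 reads), chr22:17376286-17376368 (4.61, 30 reads), and chr14:20707294-20707649 and chr2:91875340-91875425, tied at 4.50 with 30 reads each.

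The single shared pericentromeric place was on 21p, the short arm of an acrocentric chromosome. The DMSO region chr21:9825788-9826021 had 89 reads over a background of 5.72 times, and the treated region chr21:9825796-9826009 had 125 reads over 7.22 times with a fold of 3.27. The treated count was higher and the intervals overlapped, and the summits were 111 bp apart, 1.07 Mb from the acen bands. The DMSO list had 3 regions there within 1.33 kb, with up to 147 reads.

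The contig class was almost entirely a DMSO class. Of 15 contigs with a region, 14 carried DMSO regions, 4 carried treated regions and 3 (gl000195, gl000220 and gl000227) carried both. The DMSO list had 10 regions on gl000225, 7 on gl000220, 6 on gl000199, 5 each on gl000224 and gl000226, 4 on the mitochondrial genome, 3 each on gl000208, gl000214 and gl000216, 2 on gl000228, and 1 each on gl000193, gl000195, gl000205 and gl000227. The treated list had 6 on gl000195, 2 on gl000220, and 1 each on gl000194 and gl000227. Between the last region of chromosome 9 and the first on gl000220, a stretch of the order that holds gl000199, the mitochondrial genome, gl000214 and gl000216, the DMSO numbering ran through 63 regions with 16 deposited, and the treated numbering allowed at most 8 with 0 deposited.

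**Figure D5:**
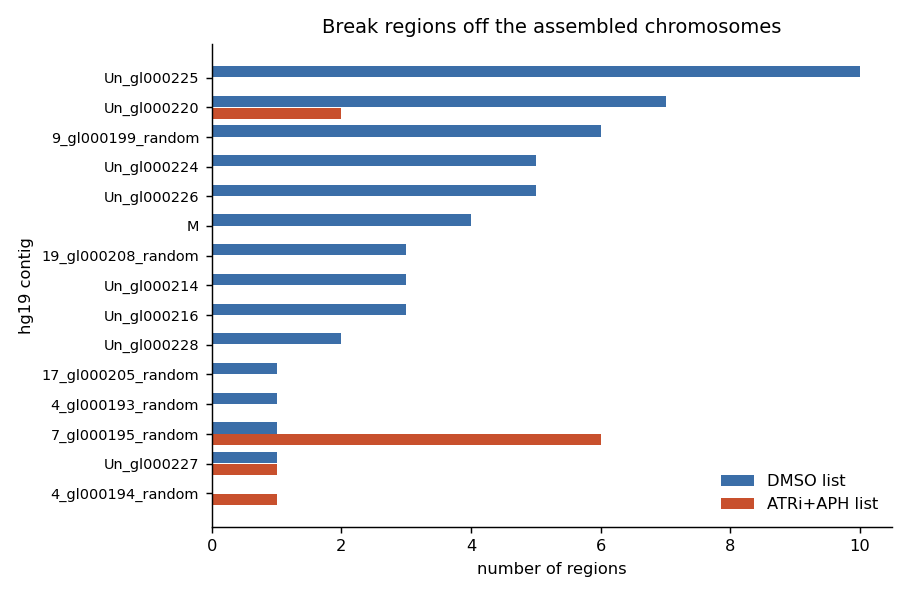
Number of regions (x axis) on each of the 15 hg19 contigs, with the mitochondrial genome as M (y axis), as 1 bar per list. The DMSO list has up to 10 regions on a contig (gl000225), and treated regions appear on 4 contigs, with 6 on gl000195.

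Only gl000227 was shared, and its DMSO region was tall over a flat background, as at chromosome ends. The DMSO region at 73689-74053 had 110 reads, a fold of 36.9 and a background of 1.23 times, the highest DMSO fold of the class. The treated region at 73726-74005 had 47 reads, a fold of 4.61 and a background of 1.72 times, with the summit 16 bp away. The next DMSO folds were 6.33 on gl000226 (14327-14405), 6.29 on gl000216 (157598-157677), 6.23 on gl000214 (123486-123603), 5.80 on gl000199 (24076-24165) and 5.64 on gl000193 (84873-84952).

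The DMSO regions on gl000220 and on the mitochondrial genome were at or near the read maximum, but their place within the ribosomal unit or the mitochondrial genes was not looked up. On gl000220 the 7 DMSO regions lay between 101693 and 146208, had 124 to 156 reads with a median of 153, folds of 1.79 to 3.46 and backgrounds of 22.5 to 52.3 times, and were up to 3178 bp wide. The 2 treated regions on this contig, 36139-36529 and 36718-36930 (52 and 53 reads), lay at least 64.9 kb away from the DMSO summits. The 4 mitochondrial regions, at 4275-4495, 5787-5876, 7489-8236 and 8360-8751, all had exactly 156 reads, folds of 1.79 to 2.14 and backgrounds of 44.2 to 52.7 times. With the same count in all 4, their folds differed through the background alone. All 4 mitochondrial and all 7 gl000220 regions lay above the background limit of the treated list given above.

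Treated contig regions were led by gl000195, a contig assigned to chromosome 7 without a position. Its 6 regions had 32 to 71 reads and folds of 2.99 to 6.77, with the highest at 107543-107647 (46 reads), 137950-138266 (4.87, 39 reads), 489-1488 (4.73, 71 reads) and 156305-156396 (3.83, 32 reads). The single DMSO region on this contig, 3418 bp wide, overlapped none of them. The gl000194 region at 6435-6594 had 31 reads and a fold of 3.71.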

How the data were processed

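BrITL pull-down libraries (2 per condition) and 1 input per condition had been reduced by the authors to 1 region list per condition. The region names show pooled calling against the input and carry the tag of a selection step, whose parameters are not stated in the labels. The submitters' processing notes name MACS2 2.1.0, Picard 1.141, SAMtools 0.1.19, STAR 2.5.2a and bcl2fastq 2.17.1.14, with the builds hg19 and mm10. The deposited fold is the ratio of pull-down coverage to local background. Significance was deposited as −log10 p-value and −log10 q-value. The authors' score repeats 10 times the −log10 p as a whole number and was used for nothing else. The summit offset in the deposited lists, an other unit, counts bases from the start of a region. Positions are hg19, counted from 1.

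Chromosome lengths and acen bands came from circlize 0.4.16 in R 4.3.3, and all else was computed in Python 3.11.15 with numpy 2.4.6, scipy 1.17.1, pandas 2.3.3 and matplotlib 3.10.9. Reads and background at each summit were solved from fold and p with the formulas MACS2 is known to use (1 added to coverage and to background, Poisson upper tail, tolerance 0.001 in −log10 p). Only whole read counts were tried. Treated reads were scaled by 0.567, the value between 0.4 and 1 at which whole counts came closest to the deposited −log10 p. The procedure was tested on simulated regions made with the same formulas, which cannot show that the formulas hold for the deposited lists. Overlap means at least 1 shared base. Intervals of shares are 95% Clopper-Pearson and those of reads exact Poisson. They cover counting error only, since libraries were amplified by PCR without molecular identifiers.

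Regions named were the 6 of highest fold in each class and list, shared pairs, the 10 end pairs of highest treated fold, every contig, and the pericentromeric chromosomes with most regions. Gene names are the outermost protein-coding genes of a chromosome end, or those flanking a centromere, in the RefSeq table of GRCh38.p14, without their positions. The classes, lists and alternatives were chosen with earlier results of these data known.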

Additional observations from a re-analysis of the deposited data

How the results depend on the processing

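No paired analysis was possible because each condition was deposited as 1 list of pooled libraries, and for the same reason no library could be left out. Under the alternatives 16 counts of regions kept within 1.5 times of the reported count and 20 did not. Shares and medians were held to the 95% interval of the reported value instead: 22 shares and 51 medians stayed inside it, 12 and 13 did not. Joining regions within 10 kb gave 23 DMSO and 19 treated end regions, 27 DMSO pericentromeric and 24 DMSO contig regions. A −log10 q of at least 10 left 22 treated end, 42 DMSO and 1 treated pericentromeric, and 30 DMSO and 2 treated contig regions. A fold of at least 5 left 14 DMSO and 3 treated pericentromeric and 8 DMSO and 1 treated contig regions. A −log10 p of at least 10.55, where the DMSO list ends, left 123 treated regions: 32 at ends, 3 pericentromeric, 4 on contigs and 84 on the arms. Those 3 pericentromeric regions had medians of 5.48 for fold, 428 bp and 39 reads. An end window of 200 kb gave 74 DMSO regions. Inside the acen bands alone there were 38 DMSO and 6 treated regions, and within 1 and 5 Mb of them 17 and 79 treated regions.

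Shares of end regions overlapping the other list were 40.4% (DMSO) and 46.3% (treated) when 50% of both regions had to overlap, 97.6% (treated) within 1 kb, 78.7% and 97.6% within 5 kb, and 42.9% (DMSO) at a −log10 q of at least 10. In the pericentromeric class they were 0% in both lists with windows of 50 kb and 1 Mb, and for treated regions 100% (1 of 1 region) at that q and 33.3% (1 of 3) at that p. In the contig class they were 0% in both lists at that q. Inside their intervals but moved by over 1.5 times were the DMSO pericentromeric share (4.48% within 1 and 5 kb, 2.38% at that q), the treated contig share (25% at that p), treated end reads (73 for the tallest region of each 10 kb group) and treated pericentromeric width (91 bp with windows of 50 kb and 1 Mb). Taking the tallest region of each 10 kb group gave DMSO medians of 24.2 for fold, 654 bp and 87 reads at ends, 4.37 for fold, 79 reads and 9.39 times background in the pericentromeric class, and 10.0 times background on contigs. Windows of 50 kb and 1 Mb gave treated pericentromeric medians of 3.85 for fold, 39 reads and 1.38 times background. Fewer regions in each such subset are part of its construction, and the cause was not tested beyond that. The 156-read maximum limits every comparison of tall summits, and regions called but left out of the deposited lists are seen here through their numbers alone.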

Other observations

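Just past the 100 kb limit the DMSO list had 9 regions at 4q, from 110.2 to 117.7 kb, and 6 at 3q, from 121.1 to 123.9 kb. Their folds ran from 6.13 to 24.4 at 4q and from 9.46 to 22.7 at 3q, and the treated list had 2 regions at each of these places.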
